A study of Mus musculus with 10 samples.

Results

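The genes described here carry sodium chloride and potassium across the distal nephron, or set how much of either is carried. The set names 9 genes. Slc12a1 and Kcnj1 are of the thick ascending limb, and Kcnj1 also of the connecting tubule and collecting duct. Slc12a3 is of the distal convoluted tubule. Scnn1a, Hsd11b2, Nr3c2 and Sgk1 are of the aldosterone-sensitive segments, and Atp1b1 and Fxyd2 are pump subunit genes. Members were all probe sets that the array's annotation assigns to 1 of these genes and to no other. This gave 10 of the array's 12488 probe sets, for 7 of the 9 genes. No probe set names Scnn1a, the alpha subunit of the epithelial sodium channel, or Nr3c2, the mineralocorticoid receptor, so neither was analysed here. Of the 10 probe sets 8 were tested, and all 8 lay over the floor on every array. The floor is a log2 value of 4, and a probe set was tested when at least 5 of the 10 arrays exceeded it. The other 2 stayed under the floor throughout and were left untested: 161517_at for Hsd11b2 peaked at 2.96 and 160500_at for Atp1b1 at 2.28.

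RNA of whole kidney was hybridised to 10 Affymetrix MG_U74Av2 arrays, 1 per mouse. The 5 transgenic mice (TG 614, 619, 652, 657 and 661) carried human wild-type FGF23 behind an alpha 1 collagen promoter, brought in by microinjection, and the 5 controls (WT 612, 618, 650, 658 and 663) were littermates. All were 8 weeks old and on a C57Bl strain. That promoter is known for activity in bone-forming and other matrix-producing cells. How many founder lines the mice came from is not stated in the labels. The groups were read from the sample titles, since the genotype field names the transgene for all 10 mice. Each group held 2 females and 3 males, as read from Xist (at least 9.94 in females, at most 3.36 in males) and the Y-linked Eif2s3y (at most 4.43 and at least 8.06). WT 612 and WT 650 were the control females, and TG 614 and TG 652 the transgenic ones. Kl, the gene of the FGF23 co-receptor klotho, fell by 0.76 ± 0.07 in TG (limma adjusted p = 0.000897), with no overlap between the groups.

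In the thick ascending limb the cotransporter NKCC2 (Slc12a1) brings in sodium, chloride and potassium, and the potassium channel ROMK (Kcnj1) returns potassium to the lumen so that the cotransporter can go on working. Further along, NCC (Slc12a3), the target of thiazide diuretics, reabsorbs sodium chloride, and the epithelial sodium channel of the connecting tubule and collecting duct drives potassium secretion through ROMK. Aldosterone acts on these last segments through its receptor, which the enzyme encoded by Hsd11b2 shields from glucocorticoids, and the kinase SGK1 carries part of the response. In mouse kidney FGF23 has been reported to raise the abundance of NCC in the membrane, and the comparison here asks how the transcripts of this system differed between transgenic mice and littermates.

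The upstream sequences of the 3 transporter genes with the largest differences are shown because the report turns on whether these genes moved together. Each is the 250 bases before the annotated start, from RefSeq, build GRCm38.p6, plus strand, with capitals marking matches to any of 6 searched motifs. The windows are chr2:125152350-125152599 for Slc12a1, chr9:32393735-32393984 for Kcnj1 and chr8:94328958-94329207 for Slc12a3.
Slc12a1: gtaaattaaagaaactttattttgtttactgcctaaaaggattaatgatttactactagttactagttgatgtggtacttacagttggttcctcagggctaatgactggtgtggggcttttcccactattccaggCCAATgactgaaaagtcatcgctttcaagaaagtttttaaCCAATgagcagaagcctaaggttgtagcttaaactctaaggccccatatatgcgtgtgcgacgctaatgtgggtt
Kcnj1: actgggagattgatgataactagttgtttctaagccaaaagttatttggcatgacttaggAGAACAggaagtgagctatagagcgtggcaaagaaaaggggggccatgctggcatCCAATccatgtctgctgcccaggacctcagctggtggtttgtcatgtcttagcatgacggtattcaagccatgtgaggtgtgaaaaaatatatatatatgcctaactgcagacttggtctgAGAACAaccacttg
Slc12a3: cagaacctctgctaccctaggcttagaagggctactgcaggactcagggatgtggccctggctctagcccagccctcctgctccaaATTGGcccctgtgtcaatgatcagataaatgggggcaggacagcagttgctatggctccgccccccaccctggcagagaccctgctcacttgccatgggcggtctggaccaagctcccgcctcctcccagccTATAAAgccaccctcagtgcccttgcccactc

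Both strands were searched for 6 motifs. AGAACA is the half-site of steroid receptors, including the mineralocorticoid receptor. TATAAA is the TATA box and CCAAT the CCAAT box, which appears as ATTGG on the other strand. CACGTG is an E-box. AGGTCA is a half-site of other nuclear receptors, and GTTAAT one of HNF1 factors. CCAAT was the only one of the 6 found in all 3 windows, and 33.9% of all 32851 promoter windows of this length hold it. Kcnj1 held AGAACA 2 times, against 16.1% of windows with at least 1 match, and Slc12a3 held TATAAA 32 bases before its start, against 12.4%. No matches overlapped, and CACGTG (6.02% of windows), AGGTCA (14.02%) and GTTAAT (6.43%) had none here. These matches describe letters only. Of the 9 genes 6 had promoter entries.

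No member passed the test with genotype alone in the model, while 7 of the 8 tested probe sets had a higher mean in TG (46.2% of all tested probe sets did). By limma's moderated test with Benjamini-Hochberg adjustment over all 6814 tested probe sets, 0 of 8 had an adjusted p under 0.05 in either direction, where 0.792% of all tested probe sets were called higher and 0.426% lower. At an unadjusted p under 0.05 there were 5 of 8 higher (6.72% of all) and 0 of 8 lower (6.02% of all). The counts were also 0 of 8 in both directions with chip lot as a block (0.866% of all higher, 0.352% lower) and with fluidics station as a block (0.499% and 0.264%). Taking 1 probe set per gene, 6 of 7 genes were higher in TG, with a median difference of 0.47, beside 2473 of 5295 genes and a median of -0.01 over all genes tested. All differences are TG minus WT on the log2 scale of the deposited values, with standard errors from limma. In whole kidney, a change in the number of cells of a type and in RNA per cell cannot be told apart.

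**Figure D1:**
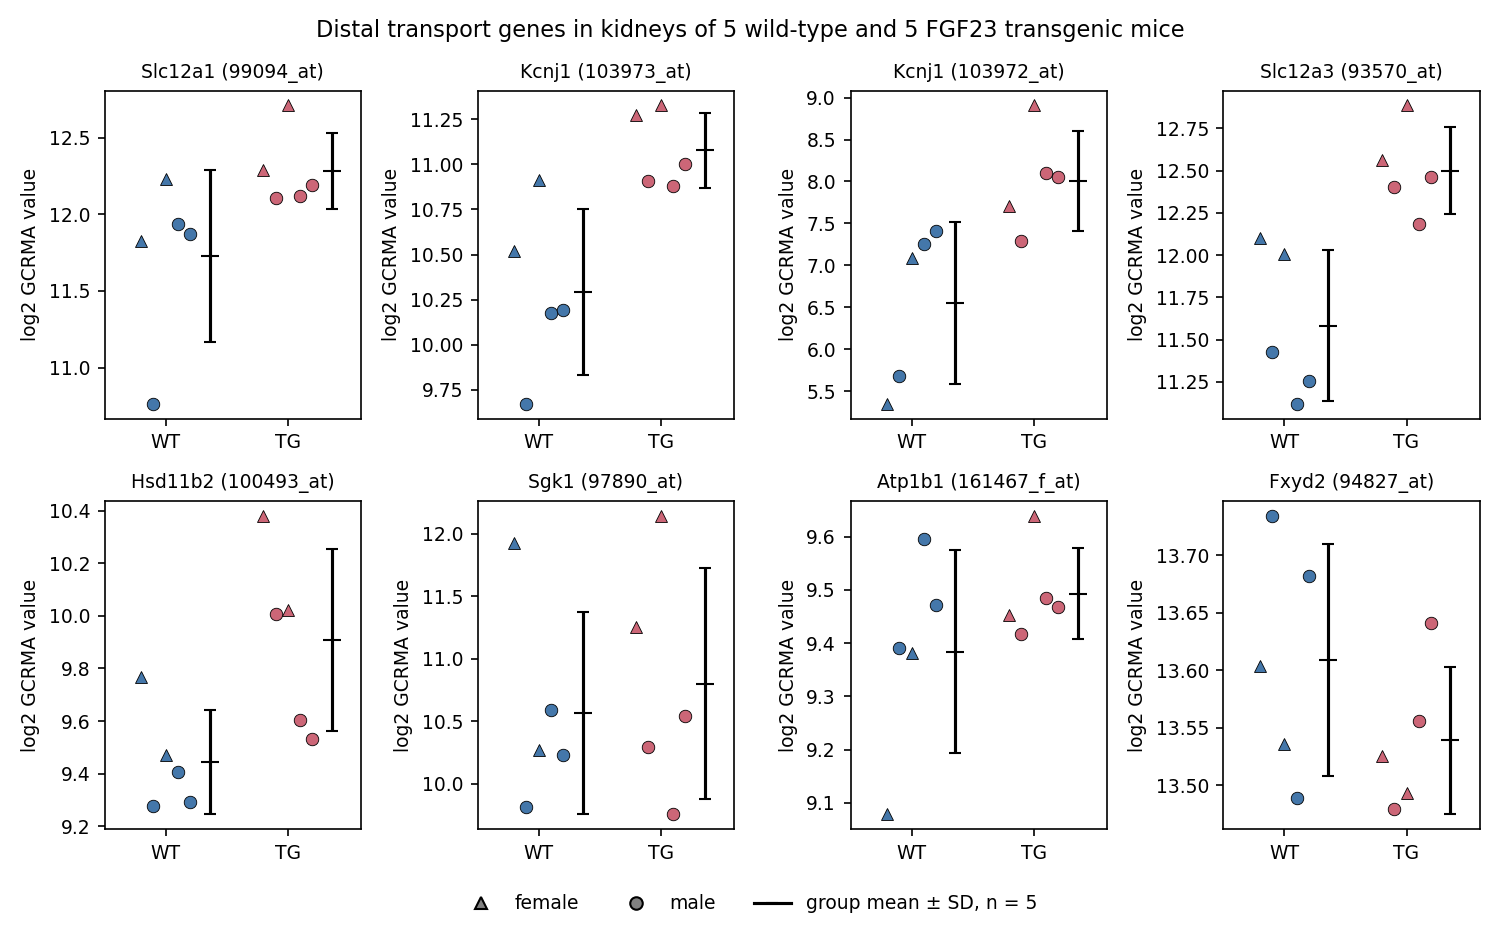
Log2 GCRMA value of each tested probe set in every mouse, with WT in blue and TG in red, triangles for females, circles for males, and the group mean with SD (n = 5) beside the points. Slc12a3 is the one panel in which all 5 TG mice lie above all 5 WT mice.

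Slc12a3 (probe set 93570_at) showed the clearest separation. In WT mice it read 12.10 in 612, 11.43 in 618, 12.01 in 650, 11.12 in 658 and 11.26 in 663. In TG mice it read 12.56 in 614, 12.40 in 619, 12.89 in 652, 12.18 in 657 and 12.46 in 661. The lowest TG mouse thus lay just above the highest WT mouse, a WT female, and in both groups the females were the highest animals. The groups averaged 12.50 ± 0.26 in TG and 11.58 ± 0.45 in WT (SD, n = 5), a 1.89-fold difference of 0.92 ± 0.21 (95% interval 0.46 to 1.38, limma adjusted p = 0.0722). It was the only member whose groups did not overlap (1 of 8, where 2.17% of all tested probe sets lay wholly higher in TG and 1.91% wholly lower). With sex in the model its difference of 0.92 ± 0.12 passed (adjusted p = 0.00328), and it passed in all 10 such fits with 1 mouse left out (adjusted p at most 0.0121).

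Kcnj1 was the other member to pass with sex in the model. Its brighter probe set, 103973_at, read 10.52, 9.67, 10.91, 10.17 and 10.19 in WT 612, 618, 650, 658 and 663. In TG 614, 619, 652, 657 and 661 it read 11.27, 10.91, 11.33, 10.88 and 11.00. The 2 TG females were the highest of all mice, and WT 650, a female, was the single WT animal within the TG range. The means of 11.08 ± 0.21 and 10.29 ± 0.46 differed by 0.78 ± 0.21, or 1.72-fold (95% interval 0.33 to 1.24, adjusted p = 0.117 by limma). With sex in the model the difference passed at 0.78 ± 0.13 (adjusted p = 0.0119), and in each of the 10 fits of that model with a mouse left out (adjusted p at most 0.034). The count with sex in the model was thus 2 of 8 members higher and 0 lower, where 2.51% and 1.67% of all tested probe sets were called.

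The second Kcnj1 probe set, 103972_at, gave a larger difference with a different pattern over the mice. It read 5.35, 5.68, 7.09, 7.25 and 7.41 in WT 612, 618, 650, 658 and 663, and 7.70, 7.29, 8.91, 8.10 and 8.05 in TG 614, 619, 652, 657 and 661. WT 612 and WT 618 lay far below the other 3 WT mice. In the brighter probe set WT 618 was the lowest WT mouse, while WT 612, the lowest in 103972_at, was the second highest of its group. The difference was 1.45 ± 0.44, or 2.74-fold (adjusted p = 0.193), and 1.45 ± 0.22 with animal number range (612 to 619 against 650 to 663) as a block (adjusted p = 0.0133, 1 of 8 members higher and 0 lower, where 1.12% and 0.66% of all tested probe sets were called). The higher number range itself read 1.30 ± 0.23 above the lower one (adjusted p = 0.0259, 1 of 8 members, where 3.6% of all were called).

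The same 2 mice stood apart in the actin controls, a measure of RNA quality. The actin control probe sets at the 3' end exceeded those at the 5' end by 3.35 in WT 612 and 2.90 in WT 618, against 1.95 to 2.42 in the other WT mice and 1.82 to 2.58 in TG. With that difference as a covariate, 103972_at differed by 0.84 ± 0.18 (adjusted p = 0.0629) in place of 1.45, while 103973_at differed by 0.75 ± 0.23 and Slc12a3 by 1.05 ± 0.22 (adjusted p = 0.173 and 0.0623). In that fit 0 of 8 members were called, where 0.543% of all were called higher and 0.367% lower. The GAPDH controls, read the same way, set WT 612 apart at 1.47. On them WT 618 at 0.96 lay near TG 619 at 0.90 and WT 650 at 0.88. The part of RNA quality in the larger value of 103972_at was otherwise not tested.

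**Figure D2:**
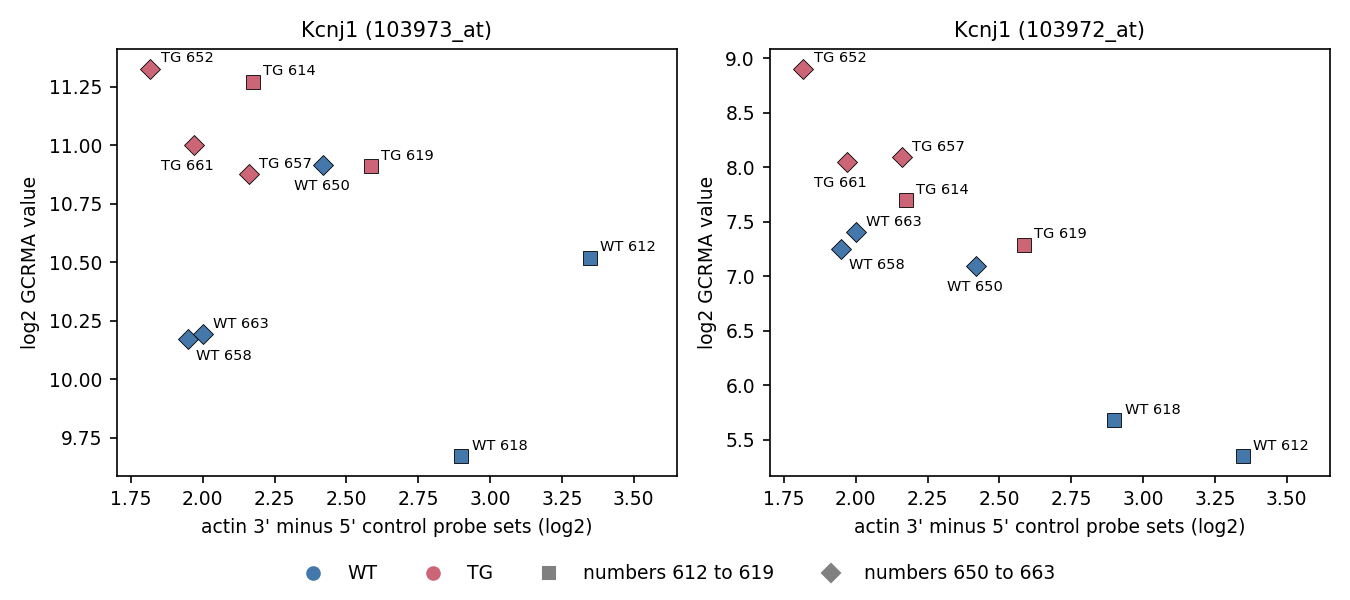
Log2 GCRMA value of the 2 Kcnj1 probe sets against the difference between the 3' and 5' actin control probe sets on the same array, 1 point per mouse, blue for WT and red for TG, squares for numbers 612 to 619 and diamonds for 650 to 663. In the right panel WT 612 and WT 618, at 5.35 and 5.68, sit at the far right. In the left panel WT 618 at 9.67 is the lowest WT mouse, while WT 612 at 10.52 is not low.

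Slc12a1 (99094_at) read 11.83, 10.76, 12.23, 11.94 and 11.87 in WT 612, 618, 650, 658 and 663. The TG mice 614, 619, 652, 657 and 661 gave 12.29, 12.10, 12.71, 12.12 and 12.19. The TG values clustered near the top of the WT range, and WT 618 stood about 1 unit below its group. The means were 12.28 ± 0.25 and 11.73 ± 0.56, a difference of 0.56 ± 0.25 (95% interval 0.02 to 1.10, adjusted p = 0.381 by limma). Without WT 618 the difference was 0.32. With the actin difference as a covariate it was 0.40 ± 0.25 (limma adjusted p = 0.475). Slc12a1 did not pass when sex was added (adjusted p = 0.205) and passed with sex and number range together (adjusted p = 0.0488), a model chosen after the values were seen. In that model 5 of 8 members were called higher (Slc12a1, both Kcnj1 probe sets, Slc12a3 and Hsd11b2) and 0 lower, where 4.59% and 3.46% of all tested probe sets were called.

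Among the genes of aldosterone action, Hsd11b2 (100493_at), whose enzyme inactivates glucocorticoids, had a higher mean in TG. Its values were 9.77, 9.28, 9.47, 9.41 and 9.29 in WT 612, 618, 650, 658 and 663, and 10.38, 10.01, 10.02, 9.60 and 9.53 in TG 614, 619, 652, 657 and 661. Only WT 612, a female, reached into the TG range. The difference was 0.47 ± 0.17, or 1.38-fold (95% interval 0.10 to 0.83, limma adjusted p = 0.276). Its adjusted p was 0.0644 once sex was added and 0.0186 with sex and number range.

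Sgk1 (97890_at), the gene of the aldosterone-induced kinase, varied more from mouse to mouse than between groups. It read 11.92, 9.81, 10.27, 10.59 and 10.23 in WT 612, 618, 650, 658 and 663, and 11.26, 10.30, 12.14, 9.76 and 10.55 in TG 614, 619, 652, 657 and 661. The 3 highest mice were females, 2 of them TG and 1 WT, and the fourth female, WT 650, lay among the males. The groups overlapped throughout, with a difference of 0.24 ± 0.48 (95% interval -0.82 to 1.29, adjusted p = 0.877 by limma). Without TG 652 it was -0.10 and without WT 612 it was 0.58, so neither its size nor its direction was settled here.

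The pump genes had the smallest differences. Atp1b1 (161467_f_at), the beta subunit that brings the sodium-potassium pump to the membrane, read 9.08 to 9.60 in WT (median 9.39) and 9.42 to 9.64 in TG (median 9.47). On this probe set alone, the difference of 0.11 ± 0.10 had a 95% interval of -0.12 to 0.34, which leaves out a change of the size measured for Slc12a3. It was 0.03 without WT 612, 0.07 without TG 652 and 0.00 with the actin difference as a covariate, so it was not told apart from 0. Fxyd2 (94827_at), the gamma subunit that tunes the pump's affinity for sodium, read 13.49 to 13.73 in WT (median 13.60) and 13.48 to 13.64 in TG (median 13.53). It was the one tested member with a lower mean in TG, at -0.07 ± 0.08 (95% interval -0.24 to 0.10, adjusted p = 0.762 by limma). The suffix of the Atp1b1 probe set marks it as one whose probes can match related sequences, and the gene's other probe set, 160500_at, stayed under the floor.

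**Figure D3:**
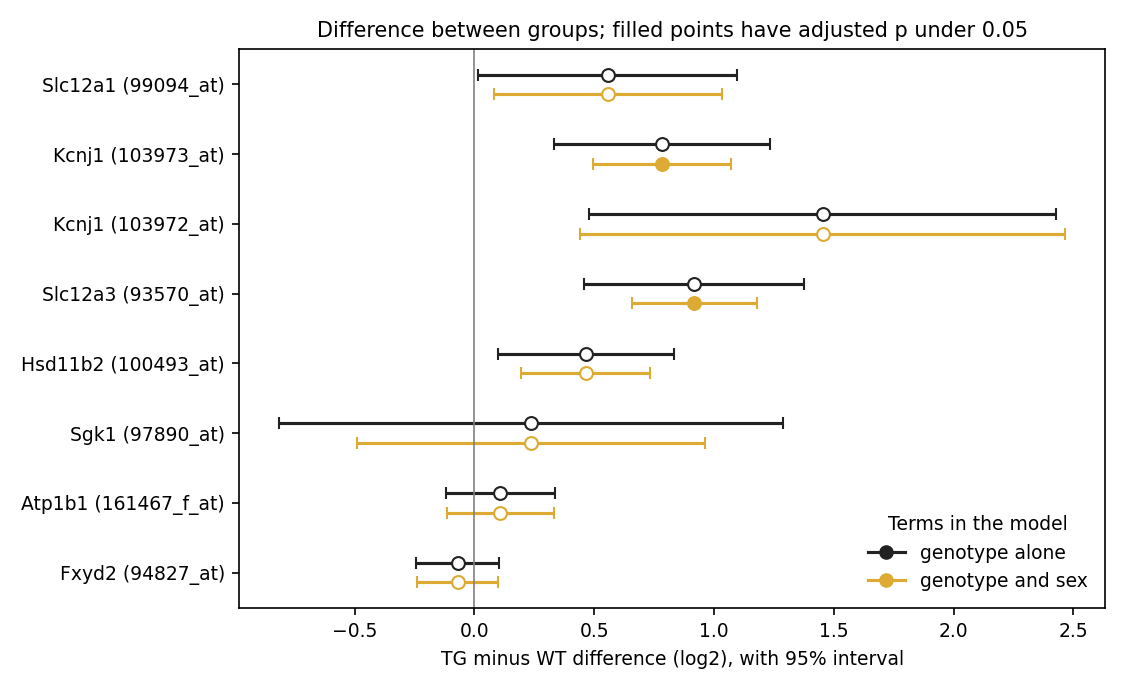
TG minus WT difference (log2) of each tested probe set with its 95% interval, for the model with genotype alone (black) and with genotype and sex (yellow), filled where the adjusted p was under 0.05. Adding sex leaves each difference as it was and narrows every interval except that of Kcnj1 103972_at. Slc12a3 (0.92) and Kcnj1 103973_at (0.78) are the 2 filled points.

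Sex itself went with the level of several members. With genotype held, females exceeded males by 0.58 ± 0.12 for Slc12a3 (adjusted p = 0.0173) and by 0.54 ± 0.13 for Kcnj1 103973_at (adjusted p = 0.0355). These were 2 of 8 members, where 8.53% of all tested probe sets were called for sex. Sgk1 differed by 1.19 ± 0.33 (adjusted p = 0.054) and Hsd11b2 by 0.39 ± 0.12 (adjusted p = 0.0744), both higher in females. The pump genes showed little, at -0.08 ± 0.10 for Atp1b1 and -0.06 ± 0.08 for Fxyd2. With 2 females per group these values rest on few animals.

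Slc12a1, Kcnj1, Slc12a3 and Hsd11b2 had higher means in TG in both sexes, which Sgk1 and Atp1b1 did not. For Slc12a3 it was 0.67 in females (12.73 against 12.05) and 1.08 in males (12.35 against 11.27). For Kcnj1 103973_at it was 0.58 and 0.92, for Slc12a1 0.47 and 0.61, and for Hsd11b2 0.58 and 0.39. Sgk1 gave 0.60 in females and -0.01 in males, and Atp1b1 0.32 and -0.03. No interaction of genotype with sex passed by limma for any member (0 of 8, where 0.0147% of all were called, and 0 of 8 at an unadjusted p under 0.05, where 4.15% were). The nearest was Slc12a3, whose difference was smaller by 0.41 ± 0.21 in females, and next Atp1b1, whose difference was larger by 0.35 ± 0.18 (adjusted p = 0.996 for both by limma). Across the 2 number ranges Slc12a3 differed by 0.72 in the lower and 1.05 in the higher, Slc12a1 by 0.90 and 0.33, and Kcnj1 103973_at by 1.00 and 0.64. Interaction with number range was called for 0 of 8 members (0.0% of all), and 1 of 8, Kcnj1 103972_at, had an unadjusted p under 0.05 (4.09% of all).

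Whether thick limb, convoluted tubule and collecting duct genes differed by unequal amounts was asked from the difference between 2 genes within each mouse. Hsd11b2 stood for the collecting duct, since Scnn1a had no probe set. The value of Slc12a3 minus that of Slc12a1 was higher in TG by 0.36 (exact two-sided permutation p = 0.23, adjusted p = 0.345), and leaving out 1 mouse moved this from 0.19 without WT 658 (exact p = 0.476, adjusted p = 0.651) to 0.56 without WT 618 (exact p = 0.0397, adjusted p = 0.119). Slc12a3 minus Hsd11b2 was higher by 0.45 (exact p = 0.0556, adjusted p = 0.167), and Slc12a1 minus Hsd11b2 by 0.09 (exact p = 0.802 before and after adjustment over the 3 comparisons). The smallest p that 5 mice against 5 allow is 0.00794, and no pair of these genes was shown to differ in the size of its change. Each segment was read from a single gene, so the segments as wholes were not compared.

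The members were also set against each other from mouse to mouse after each genotype's mean was subtracted. Of 21 pairs among 7 genes 11 were positively correlated, 4 had a permutation p under 0.05 and 0 passed adjustment over the 21. Among the 4 were Slc12a3 with Sgk1 (r = 0.69, permutation p = 0.0224, adjusted p = 0.2355) and Hsd11b2 with Sgk1 (r = 0.68, permutation p = 0.0496, adjusted p = 0.248). The lowest r was that of Slc12a1 with Fxyd2, at -0.66 (permutation p = 0.0608, adjusted p = 0.248). The closest pair was Slc12a1 with Kcnj1, whose channel also works in the connecting tubule and collecting duct. This pair gave Pearson r = 0.86 (permutation p = 0.00361, adjusted p = 0.0758) over 10 mice. Its Spearman rho was 0.79 (permutation p = 0.00611, adjusted p = 0.128), and r was 0.58 without the 2 mice farthest from the median. Kcnj1 with Slc12a3 gave r = 0.73 (permutation p = 0.0474, adjusted p = 0.248), rho = 0.77 (permutation p = 0.0222, adjusted p = 0.187) and r = 0.87 without the 2 farthest. Slc12a1 with Slc12a3 gave r = 0.40 (permutation p = 0.446, adjusted p = 0.586), rho = 0.28 (permutation p = 0.525, adjusted p = 0.648) and r = 0.32 without the 2 farthest.

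After the sexes' means were subtracted as well, these pairs had unlike r values, a difference that was not tested. The 2 females of a group then mirror each other around their mean, so the 10 mice give fewer independent values. Slc12a1 and Kcnj1 stayed together at r = 0.93, rho = 0.83 and r = 0.84 without the 2 farthest (permutation p = 0.0278 for r and 0.0417 for rho, adjusted p = 0.583 and 0.729). Kcnj1 with Slc12a3 went to r = -0.38 (permutation p = 0.361, adjusted p = 0.684) and rho = -0.13 (permutation p = 0.722, adjusted p = 0.948), and r was 0.04 without the 2 farthest. Slc12a1 with Slc12a3 went to r = -0.34 (permutation p = 0.403, adjusted p = 0.684) and rho = -0.09 (permutation p = 0.785, adjusted p = 0.969), and its sign turned to r = 0.31 without the 2 farthest. The 144 pairings this allows give a smallest p of 0.00694, which a single pair could not carry past adjustment (0.146 at best). The genes most like Slc12a3 over the 10 mice, with genotype means removed, were Cp (r = 0.96), Pdxk (0.96), Rdh11 (0.96), Klk1 (0.95) and Cd59a (0.95). Those most like Slc12a1 were B3galnt1 (0.97), Npepps (0.97), Kdm3a (0.97), Sf3b3 (0.96) and Sh3gl1 (0.96). These r values are the highest of 5295 genes and are given as a description.

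**Figure D4:**
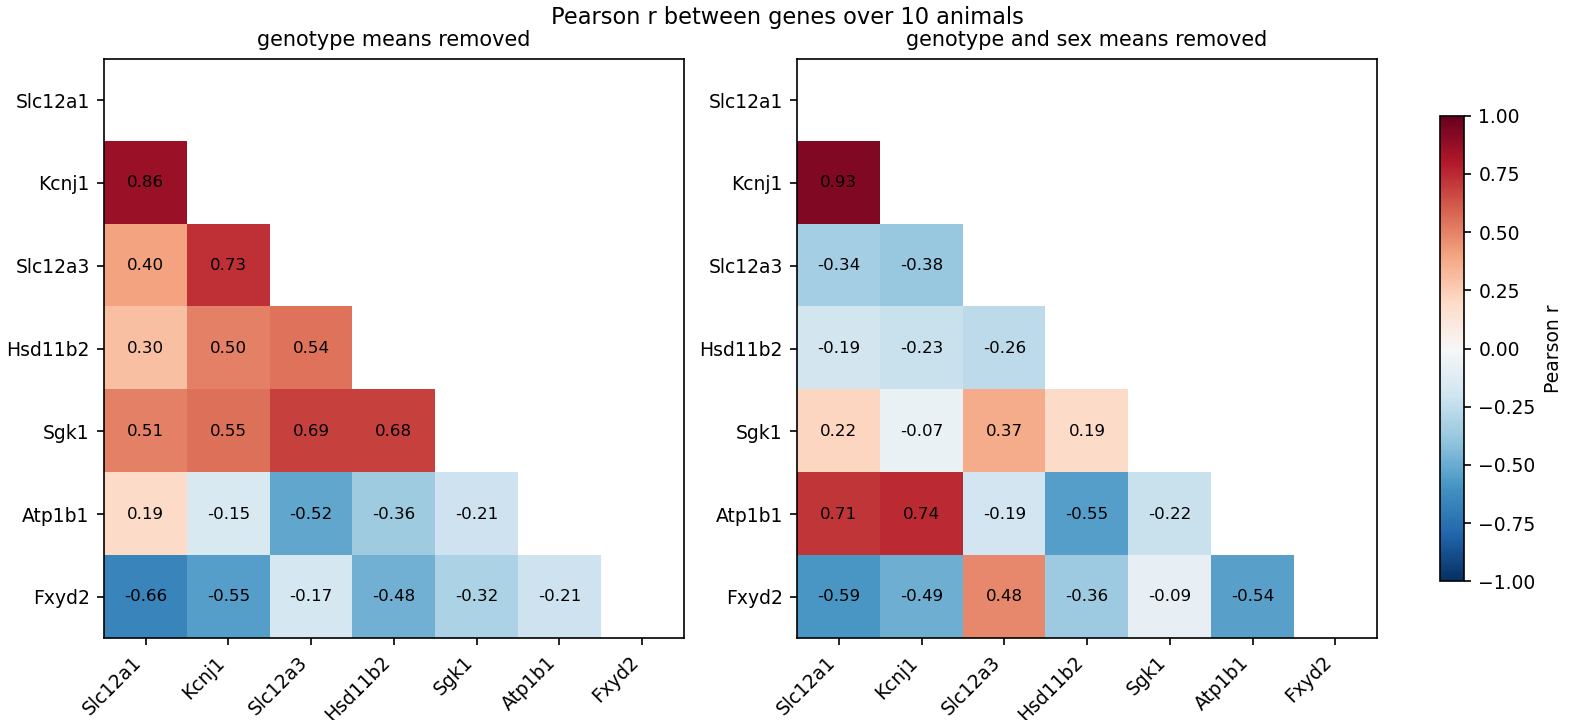
Pearson r between pairs of the 7 measured genes over 10 mice, red for positive and blue for negative, after subtracting genotype means (left) and genotype and sex means (right). Slc12a1 with Kcnj1 holds at 0.86 and 0.93, while Kcnj1 with Slc12a3 goes from 0.73 to -0.38.

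Other genes of the same pathways were taken from 6 lists covering sodium, chloride and potassium transport, its regulators and aldosterone action. Of 132 genes 84 had a probe set of their own, 57 were tested, 1 rose, 1 fell and 55 did not pass, with 13 at an unadjusted p under 0.05 and a median of 0.08. Of all tested probe sets 0.792% rose and 0.426% fell, and at an unadjusted p under 0.05 there were 6.72% higher and 6.02% lower. The gene of the lists that rose was Ndrg2 (96088_at), reported as an early aldosterone-induced gene in rat collecting duct. It read 8.90 to 9.08 in TG and 8.17 to 8.47 in WT, without overlap, and rose by 0.67 ± 0.09 (adjusted p = 0.00593 by limma). The gene that fell was Slc12a7 (104719_at), the potassium-chloride cotransporter KCC4, from 9.60 ± 0.22 to 8.96 ± 0.11, or by 0.64 ± 0.12 (adjusted p = 0.0343). Within the Slc12 family, then, KCC4 fell while the means of the sodium-dependent pair of the distal nephron were higher in TG. Slc12a2, the NKCC1 gene, differed by -0.33 ± 0.14 and Slc12a4 by -0.06 ± 0.10.

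Among 5 tested other potassium channels 0 passed, with a median of 0.08. Kcnq1, a voltage-gated channel gene, differed by 0.77 ± 0.18 (adjusted p = 0.0841), and Kcnk1, a two-pore channel gene, by 0.93 ± 0.47 (adjusted p = 0.442). Once sex was added to the fit both rose (adjusted p = 0.0117 and 0.0224). Of 10 other sodium and chloride carriers and channels, 8 were lower in TG, 1 fell (Slc12a7) and the median was -0.23. With sex in the model Clcn3, an endosomal chloride exchanger gene, fell too, by 0.35 (adjusted p = 0.0368).

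The regulators were less marked. Of 15 genes of the WNK, SPAK and ubiquitin ligase list 0 passed and 7 were higher in TG, with a median of -0.02. The ligase gene Nedd4 differed by 0.38 ± 0.11 (adjusted p = 0.182) and the phosphatase inhibitor gene Ppp1r1a by 0.32 ± 0.14 (adjusted p = 0.375). Of 19 steroid-responsive genes and receptors 14 were higher in TG, 1 rose (Ndrg2), and the median was 0.34. Errfi1, a feedback inhibitor of EGF receptor signalling, rose by 0.44 in the fit that holds sex (adjusted p = 0.0466). The 3 tested pump and FXYD genes outside the members had 0 past the test, with Fxyd5 at 0.33 ± 0.16 and Atp1b3 at 0.13 ± 0.10. Of 6 renin-angiotensin genes 0 passed, with a median of 0.21. Atp6ap2, the prorenin receptor gene, differed by 0.40 ± 0.16, and Ace by -0.86 ± 0.36, which fell once sex was held (adjusted p = 0.0124).

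Markers of the tubule segments included Umod, the uromodulin gene of the thick limb, which stood at 13.30 ± 0.13 in TG and 12.88 ± 0.58 in WT. They did not all go the way of the members. Of 4 tested thick limb markers all were higher in TG and 0 passed, with a median of 0.37, Ptger3 at 0.91 ± 0.42 and Ppp1r1a as above. The mean level of these 4 over the list was 10.34 to 10.98 in TG and 9.21 to 10.75 in WT. Of 5 markers of the distal convoluted and connecting tubule, 3 were higher and 2 lower, 0 passed, and the median was 0.01. Calb1 differed by -0.58 ± 0.25 and Pvalb by -0.91 ± 0.40, both opposite in sign to Slc12a3. Slc8a1 (0.45 ± 0.20) and Slc16a7 (0.47 ± 0.26) had the sign of Slc12a3, and Klk1 (0.01 ± 0.12) was not told apart from 0. Of 9 principal cell markers 6 were higher and 0 passed (median 0.26), with Aqp4 at -1.18 ± 0.34 and Gata3 at 0.56 ± 0.27. Aqp4, a water channel gene, fell once sex was held (adjusted p = 0.022). Of 3 intercalated cell markers 2 rose, Kit by 1.30 ± 0.26 (adjusted p = 0.044) and Slc4a1 by 0.83 ± 0.17 (adjusted p = 0.0478). Of 14 proximal tubule markers 11 were lower and 0 passed, with a median of -0.25, Slc34a1 at -0.40 ± 0.08 and Slc2a2 at -0.54 ± 0.15. Once sex was held 3 of the 14 fell, the phosphate cotransporter gene Slc34a1, the anion transporter gene Slc22a6 and the urate transporter gene Slc22a12 (adjusted p = 0.0258, 0.0352 and 0.0412).

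**Figure D5:**
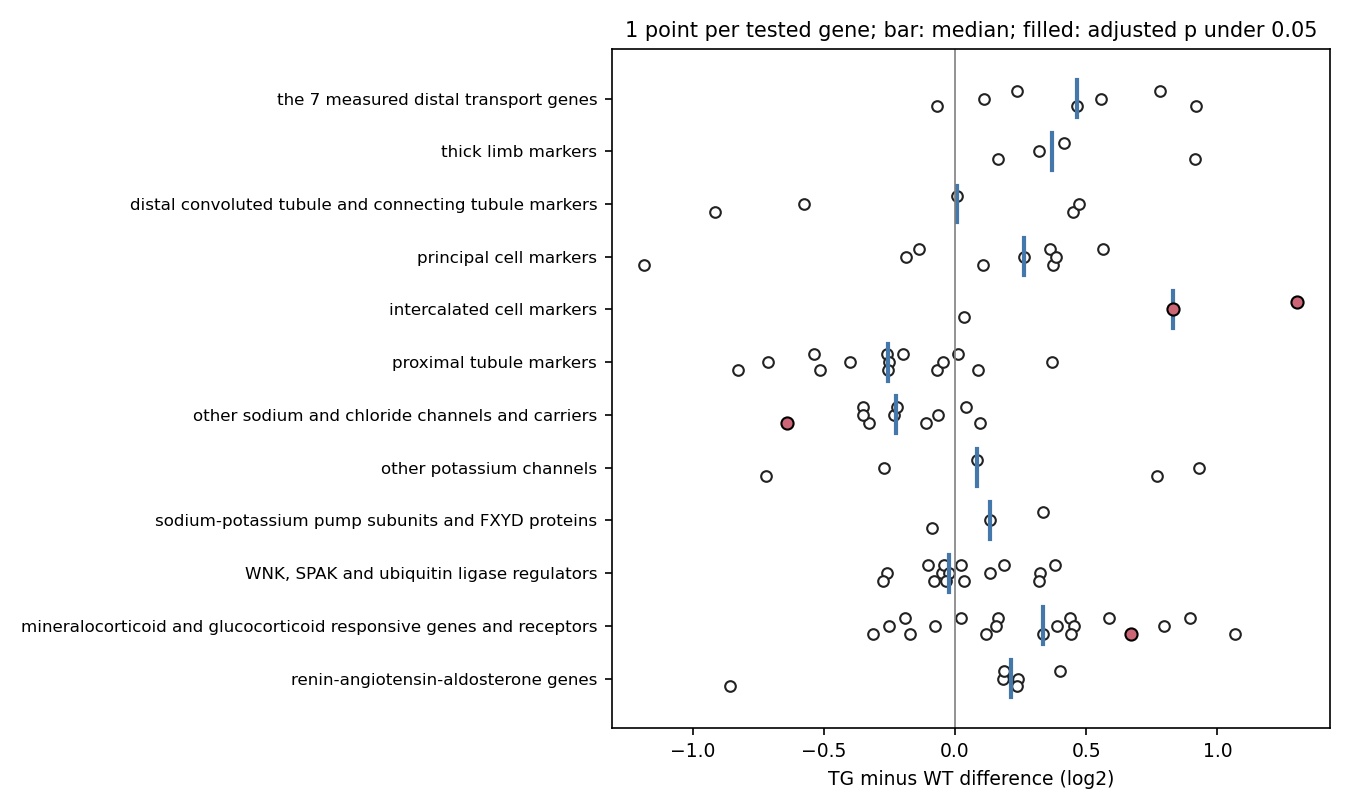
TG minus WT difference (log2) of each tested gene, 1 point per gene, for the 7 measured members and 11 lists, with a bar at the median and filled points where the adjusted p was under 0.05. The members' median is 0.47, and the filled points are Kit and Slc4a1 (intercalated cells), Slc12a7 and Ndrg2.

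Other cell types moved with genotype in part. Of 18 leukocyte markers 10 were tested, 9 were higher in TG and 2 rose, the protease gene Ctss by 1.24 ± 0.23 and the complement gene C1qa by 1.46 ± 0.31 (adjusted p = 0.037 and 0.0493). The mean level over these 10 was 7.01 to 8.16 in TG and 6.53 to 6.98 in WT, without overlap. The other 8, among them the macrophage marker Cd68 and the lymphocyte markers Cd3e and Cd79a, did not reach the filter. The 14 proximal tubule markers averaged 11.03 to 11.37 in TG and 11.39 to 11.57 in WT, again without overlap. The part of either in the members' differences was not tested. Endothelial (8 tested), podocyte (5), fibroblast and smooth muscle (8) and adipose (5) markers had 0 members past the test, with medians of 0.01, 0.04, 0.19 and -0.23. The smallest p values among them belonged to Kdr (-0.18 ± 0.12) and Flt1 (-0.10 ± 0.15), Cd2ap (0.48 ± 0.25) and Synpo (0.10 ± 0.30), the collagen genes Col3a1 (0.74 ± 0.32) and Col1a2 (0.67 ± 0.32), and Lipe (-0.25 ± 0.16) and Ucp1 (-0.40 ± 0.27), in that order of lists. Of 3 tested blood markers 1 rose, Slc4a1 again. Adrenal markers, which could carry steroid enzymes into a kidney sample, had 1 of 7 probed genes tested (Nr5a1, 0.01 ± 0.10), and Cyp11a1, Star and Cyp21a1 did not reach the filter. None of 7 skeletal muscle markers did.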

How the data were processed

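Kidney RNA of 10 mice was measured on 1 array each, from 6 ug of RNA per the labels. The authors deposited GCRMA values on a log2 scale, 1 for each probe set of an array, per the submitters' processing notes, where the version is left out. The log2 scale was read from the range of the values, which were used as deposited. Chip lot, fluidics station and processing day were taken from the run files, per the file headers. After 66 controls were left out, 6814 of the remaining probe sets were tested for TG against WT with limma 3.58.1 in R 4.3.3 (lmFit and eBayes, two-sided, Benjamini-Hochberg adjustment over all tested, threshold 0.05). Errors of group means are SD. Each gene in a list was taken by its brightest tested probe set. Gene symbols came from the platform annotation, of which 16 found no match in the RefSeq table and were kept as written. Correlations were permuted within genotype over 14400 pairings. The number of arrays limits the precision. The steps were tested on simulated data. Python 3.11.15 with matplotlib 3.10.9 drew the figures.

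The members, lists and tests were chosen with earlier results of these data known. Named are every member probe set, in each list the genes past the threshold or else the 2 with the smallest p, and the 5 genes most like Slc12a3 and like Slc12a1. The genes named only with sex in the model (Clcn3, Errfi1, Slc22a6 and Slc22a12) were chosen after their values were seen. So were Umod, Slc8a1, Slc16a7, Klk1 as a tubule marker, Slc12a2, Slc12a4, and the leukocyte and adrenal genes under the filter. Comparisons planned with Scnn1a used Hsd11b2 instead. Alternatives covered filters, variance models, array weights, normalization, log scale, batches, sex, a threshold of 0.01 and leaving out each mouse. The processing day could be fitted only on the 8 arrays of the first day, since the later days held 1 array each, and chip lot without TG 661, alone in its lot.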

Additional observations from a re-analysis of the deposited data

Results flagged for a closer look

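One value of a member stood far from its group. Slc12a1 (99094_at) in WT 618 read 10.7627, the lowest of the 5 WT mice, with a gap to the next animal of 0.723 of the group's whole range, where 0.71 is the 95% limit for 5 samples. Chance alone passes that limit in about 5% of groups, and 16 groups were looked at. The same mouse, with an actin 3' minus 5' difference of 2.90 against 1.82 to 2.58 in TG, was also the lowest WT animal for Kcnj1 103973_at (9.67). WT 612, whose actin difference was larger at 3.35, read 11.83 for Slc12a1 and 10.52 for Kcnj1 103973_at. The GAPDH difference was 0.96 in WT 618 and 0.90 in TG 619. Without WT 618 the Slc12a1 difference was 0.32 in place of 0.56, and adjusted p = 0.569 by limma.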

How the results depend on the processing

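The count of members called higher in TG was 0 with genotype alone and stayed 0 under trended or robust variances, without the filter or with one at log2 over 6, quantile normalization, median centring, an offset of 16, a threshold of 0.01, and chip lot, station or day as block. It was 1 with array weights (Slc12a3, adjusted p = 0.021), 1 with number range as block, 2 with sex in the model, and, chosen after seeing the data, 5 with sex and number range and 2 in males alone, and 2 in each fit with sex that left out a mouse. Leaving out a mouse without sex gave 0 to 2: Slc12a3 passed without WT 612 (adjusted p = 0.0417) and without WT 650 (0.04996), and Kcnj1 103973_at without WT 650 (0.044). The count lower in TG was 0 in all of these. The share of all tested probe sets called was counted at the 0.05 threshold with genotype alone. It was also counted with sex, number range, both of these, chip lot, station or the actin difference in the model. For the other settings it was not counted, so their member counts cannot be set against such a share. Signs turned for Sgk1 (from -0.10 without TG 652 to 0.58 without WT 612, -0.0095 in males, -0.092 in numbers 612 to 619, -0.075 with sex and without WT 650), Atp1b1 (-0.030 in males) and Fxyd2 (0.012 on station 2). Leaving out mice moved Slc12a1 minus Hsd11b2 over -0.11 to 0.21, the negative value without WT 618. Pairs past adjustment by Pearson's r numbered 2 with quantile normalization (Slc12a1 with Kcnj1 at r = 0.85 and with Fxyd2 at -0.82), and 0 to 1 with a mouse left out (Kcnj1 with Sgk1, without WT 650). By Spearman's rho 2 passed without WT 612, Slc12a1 with Kcnj1 and with Sgk1 (rho = 0.92 and 0.77, permutation adjusted p = 0.0328 for both). With quantile normalization Slc12a1 with Fxyd2 passed by rho as well (rho = -0.85, permutation adjusted p = 0.00729). The cause of these changes was not tested. The interactions with sex and with number range called 0 members under every alternative run for them. Averaging a gene's tested probe sets left the within-mouse comparisons as they were, since each of the 3 genes has 1. No paired analysis was possible because the groups share no replicate number and the labels name no litter or pair.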
